A study of Mus musculus with 6 samples.

Results

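The negative limb of the circadian clock was examined in CT26.WT tumors through 9 genes, Per1, Per2, Per3, Cry2, Ciart, Nr1d1, Nr1d2, Bhlhe40 and Bhlhe41. They were taken by symbol from a count table of 55487 gene identifiers, all 9 were found once, and all 9 were among the 15114 genes that passed the filter on low counts. The genes were chosen by their CPM difference between IFN-γ and control in these same 6 tumors, where clock genes stood out. That difference is therefore given for them as a description. The numbers of them past a threshold are printed only beside the share of all genes, and they are no evidence of a difference.

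RNA was sequenced from 6 subcutaneous tumors, 3 control and 3 IFN-γ, with 1 library per tumor. CT26.WT is a BALB/c mouse colon carcinoma line, labelled wild type, grown under the skin of male immunocompetent BALB/c mice that were 4 weeks old at the start. According to the methods, recombinant mouse IFN-γ was injected into the tail vein at intervals of 48 h, and the controls were injected with PBS by the same route. Each group had 6 mice in that experiment, and how the sequenced tumors were picked from them is not given in the sources used here. The hour of day at which each tumor was collected, and whether several tumors came from one litter or cage, are not given in the sources used here, so p-values measure the spread between these tumors only. For the same reason, a group difference in clock genes cannot be told apart from a difference in collection hour. Whole tumors hold host cells as well as CT26.WT cells, and fewer cells of a type cannot be told apart from less RNA per cell.

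The tumors had 15759300 to 17559680 counts on genes. Levels are given as CPM, which is the count of a gene scaled to a common library total with TMM factors. IFN-γ tumor 3 stood apart from the other tumors of its group. Of all genes tested, 10.02% were at least 1.5-fold below both other IFN-γ tumors there, against 1.25% and 2.10% in IFN-γ tumors 1 and 2. It also had the most RNA of 8 skin keratinocyte markers, such as Krt14 and Krt5, which summed to 75.4 CPM there and to 3.73 to 13.9 CPM in the other tumors. Of 10 markers of colon epithelium, Cdx2 had 0 counts in every tumor, Epcam, Krt19, Cdx1 and Vil1 were under 1 CPM in every tumor, and Krt20 was at a mean of 162 CPM in the control group.

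In mammalian cells the transcription factors CLOCK and BMAL1 (the product of Arntl) bind E-box sequences and switch on the genes of their own inhibitors. PER and CRY proteins form complexes that enter the nucleus and block CLOCK and BMAL1. CIART, also called CHRONO, represses the same pair. REV-ERBα and REV-ERBβ, encoded by Nr1d1 and Nr1d2, are heme-binding nuclear receptors that sit on ROR elements and silence Arntl through NCOR and HDAC3. DEC1 and DEC2, encoded by Bhlhe40 and Bhlhe41, are basic helix-loop-helix repressors that occupy E-boxes and also respond to hypoxia and to cytokines.

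RefSeq promoter windows (GRCm38.p6, 250 bases before to 50 bases after a transcription start) were found for 7 of the 9 genes, with a pair of starts for Per1, and were searched on both strands for the letters of clock elements. Per2 and Bhlhe40 had no window. The windows that held an E-box, CACGTG, or an E′-box, CACGTT, are shown first, because these are the elements through which CLOCK and BMAL1 act. Capitals mark the element, the reading direction is that of the gene, and each position is that of its first base before the start.
Ciart, chr3:95882328-95882355, minus strand, position -116: gcatctagagtCACGTGttgccggtaag
Ciart, chr3:95882270-95882297, minus strand, position -58: gcagggggaggCACGTGcagaaccgcac
Ciart, chr3:95882256-95882283, minus strand, position -44: gtgcagaaccgCACGTGtctgggagggg
Per1, chr11:69098772-69098799, plus strand, position -166: gcacccaagtcCACGTGcagggatgtgt
Bhlhe41, chr6:145865557-145865584, minus strand, position -153: ggtacgttccgCACGTGagctgggtgct
Nr1d1, chr11:98775389-98775416, minus strand, position -28: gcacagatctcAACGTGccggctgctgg
Cry2, chr2:92434219-92434246, minus strand, position -166: cacatggtgggAACGTGagggggcggag

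The E-box was in 3 of the 8 windows of these genes and in 7.15% of the 32851 windows of all genes. Ciart held it 3 times. The E′-box, written as AACGTG when it lies on the opposite strand, was in the windows of Nr1d1 and Cry2 and in 4.68% of all windows. Per3 held neither, but it held the D-box TTANGTAA, the element of DBP, TEF, HLF and NFIL3, at 2 places, which are shown for that reason. The D-box was in 2.32% of all windows.
Per3, chr4:151044852-151044881, minus strand, position -205: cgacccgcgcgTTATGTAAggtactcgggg
Per3, chr4:151044805-151044834, minus strand, position -158: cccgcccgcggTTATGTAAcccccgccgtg

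Nr1d2 held none of these elements in its window. The cyclic AMP response element TGACGTCA, the ROR element core TAGGTCA and the palindromic glucocorticoid response element were in none of the 8 windows, against 1.79%, 2.61% and 0.00913% of all windows. A single STAT-type GAS element, TTCNNNGAA, lay in the window of the downstream start of Per1, and 8.30% of all windows held one. Of general promoter letters, CCAAT was in 7 of the 8 windows and 37.4% of all windows, and GGGCGG in 7 and 35.7%, and the Nr1d1 window held neither. These matches are descriptions of letters in short windows, and binding was not measured.

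All 9 genes were higher in each IFN-γ tumor than in each control tumor, with fitted fold changes from 1.13 for Cry2 to 7.06 for Nr1d1. Groups that do not overlap in this direction were found for 7.62% of all genes tested. In edgeR's quasi-likelihood test, 5 of the 9 were past the adjusted threshold of 0.05, namely Nr1d1, Nr1d2, Per1, Per2 and Bhlhe41, against 0.0794% of all genes tested that were past it in this direction. In either direction 0.112% of all genes were past it, and 0.0331% were past it and lower. Nothing is read from these shares, since the same contrast chose the genes. The number past the threshold was 7 in DESeq2 (0.936% of all genes higher, 1.47% in either direction) and 4 in limma-voom (0.0662% and 0.086%). It was 8 with no filter on low counts (0.558% of all genes higher) and 3 with a replicate block (0.0331%). Leaving out control tumor 1, 2 or 3 gave 3, 2 and 4 genes, beside 0.0388%, 0.0259% and 0.0454% of all genes. Leaving out IFN-γ tumor 1, 2 or 3 gave 2, 3 and 7 genes, beside 0.026%, 0.0324% and 2.46%. Among these fits with single tumors left out, Per1 was not past the threshold without control tumor 2 or IFN-γ tumor 1. Per2 was not past it without control tumor 1 or 2 or IFN-γ tumor 1 or 2. Bhlhe41 was past it, among the same fits, only without IFN-γ tumor 3. An unadjusted p under 0.05 was reached by 8 of the 9 genes, all but Cry2, and by 10.2% of all genes.

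**Figure D1:**
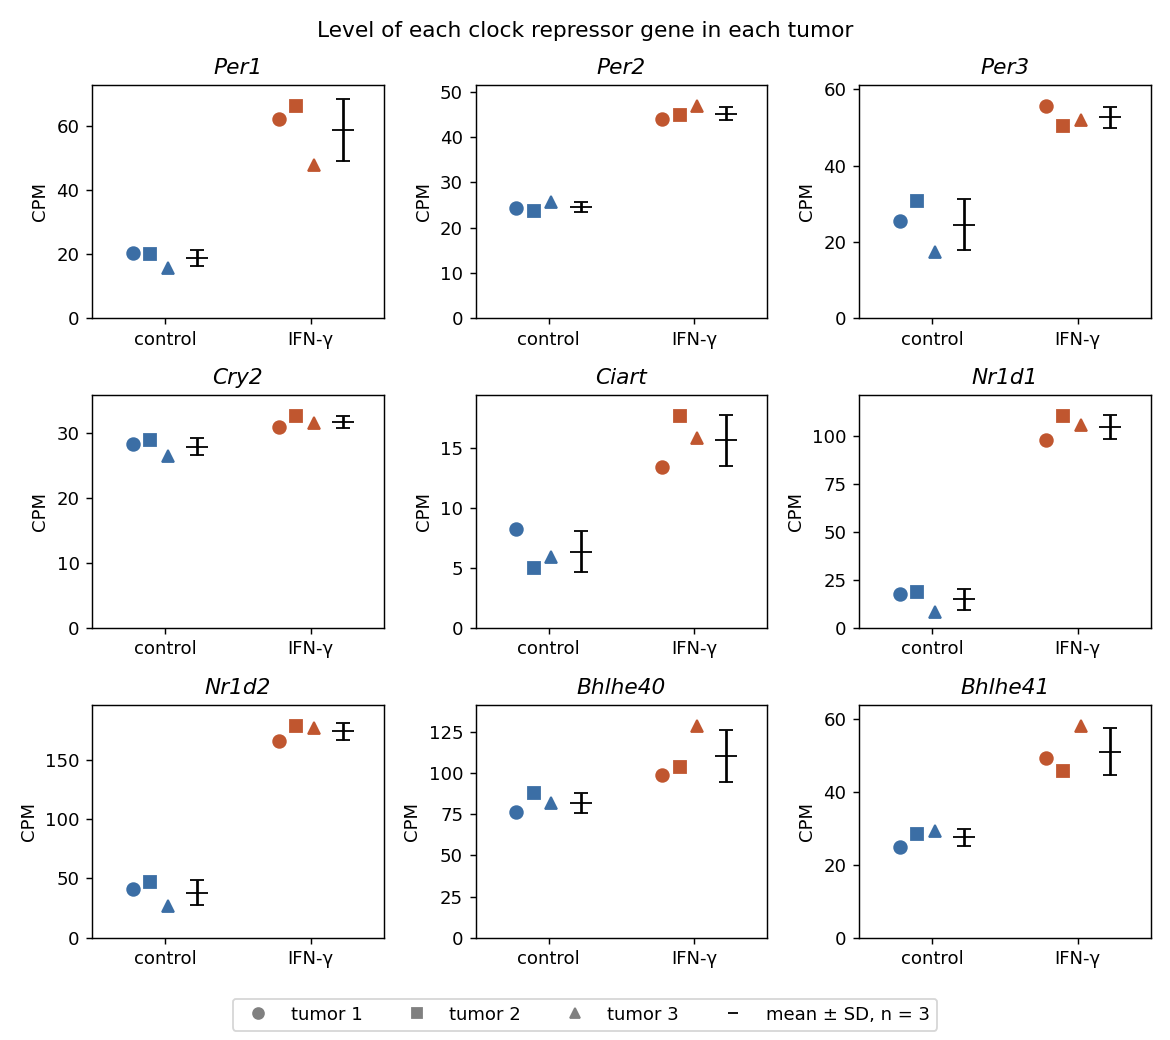
Level in CPM of each gene in the 3 control tumors (blue) and the 3 IFN-γ tumors (orange), with 1 symbol shape per tumor number and the mean ± SD (n = 3) in black on linear axes that start at 0. The groups are widest apart for Nr1d1 and Nr1d2 and almost touch for Cry2.

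The Rev-erb receptors had the largest differences of the set. Nr1d1 was at 17.6, 18.4 and 8.46 CPM in control tumors 1, 2 and 3 and reached 97.8, 110.2 and 105.5 CPM under IFN-γ, in tumors 1, 2 and 3 of that group. Its lowest IFN-γ value was 5.32-fold above its highest control value, and control tumor 3 was less than any other tumor by a wide margin. The log2 fold change was 2.82 (SE 0.25), and it was 2.53 without control tumor 3. Only 5 of the 15114 genes tested had a larger log2 fold change, since Nr1d1 stood at place 6 in that order.

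Nr1d2 was at 40.7, 46.7 and 26.6 CPM in the control tumors and at 166, 178 and 177 CPM in the IFN-γ tumors. Control tumor 3 was again the lowest, and the IFN-γ tumors lay close together. The log2 fold change was 2.19 (SE 0.18), with 1.98 to 2.37 when single tumors were left out.

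Nr1d1 (ENSMUSG00000020889) lies on the minus strand of chromosome 11, from 98767932 to 98775333 (GRCm38), tail to tail with Thra, the thyroid hormone receptor α gene. Their exons share 263 bases, 8.55% of the exon length of Nr1d1. The strand setting of the counting is not given in the sources used here, so reads in the shared part cannot be assigned to either gene. Thra was at 38.3, 35.4 and 33.7 CPM in the control tumors and 50.15, 49.48 and 49.97 CPM in the IFN-γ tumors. Its log2 fold change was 0.48 (SE 0.080, adjusted p = 0.097 from edgeR). Thra was past the threshold without IFN-γ tumor 3 (adjusted p = 0.031, edgeR), but not without any other single tumor (0.255 to 0.387). The fit without IFN-γ tumor 3 called 381 genes higher and 112 lower, against 12 and 5 with all tumors. Cry1, Clock, Wee1, Nampt, Hlf, Cebpd, Atf3, Ciita and Gbp2, named below, likewise passed only without that tumor among the leave-outs. Thra had 590 to 628 counts in the control tumors and 808 to 864 in the IFN-γ tumors, while Nr1d1 went from 148 to 326 counts to 1685 to 1804.

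The Period genes, whose proteins pace the clock through their slow accumulation and phosphorylation, were all higher in the IFN-γ group, but to unequal extents. Per1 was at 20.3, 19.9 and 15.8 CPM in the control tumors and at 62.2, 66.2 and 47.8 CPM in the IFN-γ tumors. IFN-γ tumor 3 was the lowest of its group and was still 2.36-fold above the highest control. The log2 fold change was 1.66 (SE 0.15). Per1 is also a direct target of the glucocorticoid receptor and of CREB.

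Per2 had the tightest groups of the Period genes, at 24.3, 23.6 and 25.7 CPM in the control tumors and 43.9, 44.9 and 46.9 CPM after IFN-γ. Its log2 fold change was 0.88 (SE 0.081). Per3 was at 25.4, 30.6 and 17.3 CPM in the control tumors and at 55.6, 50.3 and 51.9 CPM in those given IFN-γ. Its fitted difference was 1.11 on the log2 scale (SE 0.18). Per3 thus had the larger fitted difference and the wider control group.

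Cry2, the cryptochrome of the set, showed the smallest difference. It was at 28.3, 28.9 and 26.4 CPM in the control tumors and at 30.8, 32.6 and 31.4 CPM in the IFN-γ tumors. The groups did not overlap, but the lowest IFN-γ tumor was only 1.07-fold above the highest control tumor. The log2 fold change was 0.18 (SE 0.085), with 0.14 to 0.21 when single tumors were left out. Cry1, its paralog and the other cryptochrome, lay on the other side of 0, with a control mean of 20.2 ± 3.86 CPM (SD, n = 3) and an IFN-γ mean of 12.7 ± 2.81 CPM (SD, n = 3). The log2 fold change of Cry1 was -0.67 (SE 0.19, adjusted p = 0.32, edgeR), and without IFN-γ tumor 3 it was -0.87 and past the threshold (adjusted p = 0.036, edgeR).

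Ciart had the lowest counts of the set, from 88 to 132 in the control tumors and from 232 to 290 in the IFN-γ tumors. Its levels were 8.25, 4.96 and 5.89 CPM in the control tumors and 13.5, 17.7 and 15.9 CPM in the IFN-γ tumors. The log2 fold change was 1.30 (SE 0.21), with 1.15 to 1.53 when single tumors were left out.

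The DEC genes differed from each other. Bhlhe40 was the most abundant gene of the set in the control group per length of exon and per library, at 76.1, 87.8 and 81.9 CPM, and it reached 99.1, 104 and 129 CPM after IFN-γ. Its log2 fold change was 0.43 (SE 0.11), and 0.30 without IFN-γ tumor 3, which was the highest of its group. Bhlhe41 was at 24.9, 28.5 and 29.3 CPM in the control tumors and at 49.2, 45.8 and 58.1 CPM in the IFN-γ tumors. Its log2 fold change was 0.89 (SE 0.11), and IFN-γ tumor 3 was again the highest.

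**Figure D2:**
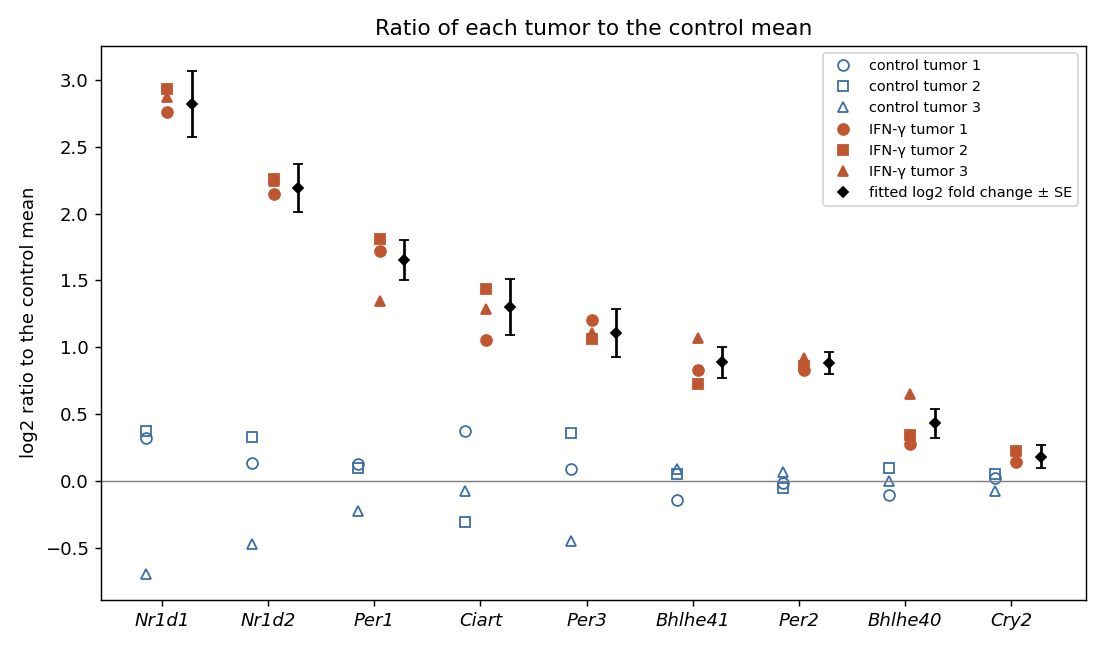
Log2 ratio of each tumor to the mean of the control tumors for each gene, in order of fitted log2 fold change, with control tumors as open blue symbols, IFN-γ tumors as filled orange symbols and the fitted value ± SE as a black diamond. Control tumor 3 (open triangles) lies below the other controls for Nr1d1, Nr1d2, Per1, Per3 and, by less, Cry2. IFN-γ tumor 3 (filled triangles) lies with its group for all 9 genes.

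IFN-γ tumor 3 was as high as the others, with a median log2 ratio to the control mean of 1.11 over the 9 genes, where the other IFN-γ tumors had 1.05 and 1.07. For 17 genes of the IFN-γ response, the same median was -0.081 in IFN-γ tumor 3, where the other tumors of the group had 0.87 and 0.93. Summed over the 9 genes, the level was 237 to 289 CPM in the control tumors and 618 to 663 CPM in the IFN-γ tumors.

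Levels were then compared between genes per kilobase of annotated exon. In the control group Bhlhe40 came first at 17.4 ± 1.24 CPM per kb (SD, n = 3), above Nr1d2 at 7.03 ± 1.91 with no overlap. The other 7 genes lay between 4.82 CPM per kb for Nr1d1 and 2.54 for Per3, and of the neighbors among them only Bhlhe41 and Per1 did not overlap. In the IFN-γ group Nr1d1 came first at 34.0 ± 2.03 CPM per kb (SD, n = 3) and Nr1d2 second at 32.1 ± 1.30, and the values of this pair overlapped. Bhlhe40 followed at 23.5 ± 3.40, Per1 at 10.4 ± 1.72 and Per2 at 7.73 ± 0.256 CPM per kb, and Cry2 came last at 4.9998 ± 0.140.

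Nr1d1 was above 44.4% of all tested genes per kilobase in the control group and above 88.9% in the IFN-γ group. Cry2 went from 42.2% to 45.1% on the same scale. The order of the lower genes rests on the length taken. With the longest transcript in place of all exons, only Bhlhe40 and Nr1d2 kept their places in the control order. There Cry2 moved from place 4 to place 3 and Per3 from place 9 to place 7. In the IFN-γ order Per2 moved from place 5 to place 9, Per3 from place 8 to place 5 and Cry2 from place 9 to place 8.

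Within each family the composition shifted between the groups. Nr1d1 made up 43.2%, 40.9% and 35.8% of the Rev-erb level per kilobase in control tumors 1, 2 and 3 and 50.9%, 52.0% and 51.2% in IFN-γ tumors 1, 2 and 3, so the group ranges did not overlap. The pair summed to 11.8 ± 3.68 CPM per kb in the controls and to 66.1 ± 3.30 with IFN-γ (SD, n = 3). Per1 made up 31.1% to 34.7% of the Period level in the control tumors and 38.8% to 47.7% in the IFN-γ tumors. Per2 made up 37.5% to 48.8% and 30.8% to 36.6%, and Per3 20.04% to 29.6% and 21.2% to 24.7%, the only gene of the 3 whose shares overlapped. Bhlhe41 stood at 18.5% to 20.04% of the DEC level in the control tumors and at 23.6% to 25.8% in the IFN-γ tumors. With the longest transcript as the length, the same shares overlapped or stayed apart. These shares follow from the contrast that chose the genes and are given without a test.

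**Figure D3:**
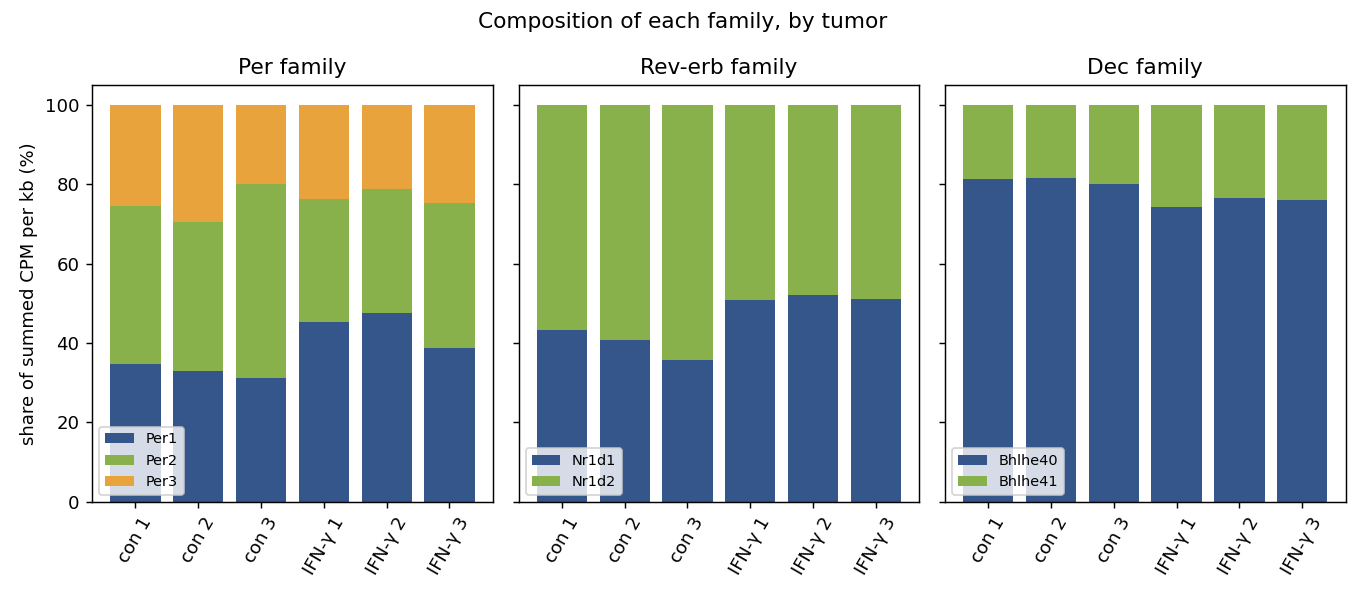
Share in percent of each gene in the summed CPM per kb of its family, as stacked bars for the 3 control (con) and 3 IFN-γ tumors. Nr1d1 passes 50% of the Rev-erb level in each IFN-γ tumor, and Per1 takes a larger share of the Period level there.

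The spread among tumors of a group separated the genes into those that varied and those that barely did. In the control group the coefficient of variation (CV) of CPM was 37.3% for Nr1d1, 27.4% for Per3, 27.1% for Nr1d2 and 26.7% for Ciart. Genes of like level were those within 0.5 on the log2 scale of the gene's mean CPM over all 6 tumors. That mean was above the control level of each clock repressor, most of all for Nr1d1 and Nr1d2. The like-level genes of Nr1d1 and Nr1d2 thus had more counts, and less counting error, than Nr1d1 and Nr1d2 in the control group. The median CV of genes of like level was 6.70% for Nr1d1, 7.38% for Per3, 6.30% for Nr1d2 and 12.3% for Ciart. Nr1d1 varied more than 99.6% of its like-level genes and Nr1d2 more than 98.9%. Per2 and Cry2 varied less than most, with CVs of 4.37% and 4.61%, where counting error alone gives 4.89% and 4.59%.

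In the IFN-γ group the Rev-erb genes were tight, with CVs of 5.99% for Nr1d1 and 4.04% for Nr1d2. Per1 at 16.5% and Bhlhe40 at 14.4% were the most variable of the set there, above 87.4% and 87.7% of genes of like level. With the SD of log2 CPM in place of the CV, the number of genes above the median of their like-level genes in the control group was 7 on either scale.

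**Figure D4:**
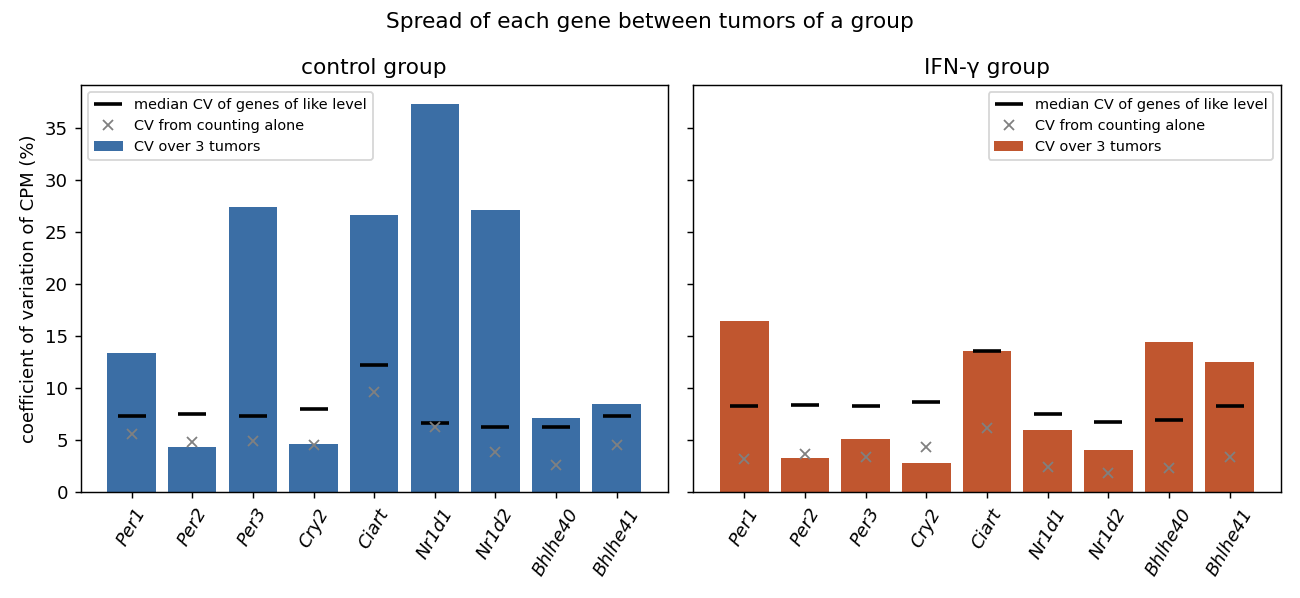
Coefficient of variation of CPM over the 3 tumors of each group (bars from 0), with the median of genes of like level (black line) and the value that counting error alone gives (gray cross). Like level refers to the mean CPM over all 6 tumors, in both panels. The control bars of Nr1d1, Nr1d2, Per3 and Ciart stand far above the black lines, and in the IFN-γ group none of the bars exceeds 16.5%.

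For Nr1d1, Nr1d2 and Per3, control tumor 3 was the control farthest from the others. It was lower than the mean of control tumors 1 and 2 by 1.05 on the log2 scale for Nr1d1, with values of -0.70 for Nr1d2, -0.67 for Per3 and -0.34 for Per1. Nr1d1 and Nr1d2 were at least 1.5-fold below both other controls there, as were 2.77% of all genes tested. Per2 (0.10), Bhlhe41 (0.14), Bhlhe40 (0.0017), Cry2 (-0.11) and Ciart (-0.11) lay closer to the other controls, and Ciart was highest in control tumor 1 among the controls. The median over all genes tested was 0.0026. Arntl, the main target that REV-ERB proteins silence, was at 67.5, 71.3 and 70.1 CPM in control tumors 1, 2 and 3. Of other clock genes, Tef (-0.34), Dbp (-0.29) and Clock (-0.18) were lower in control tumor 3 on the same scale. Cry1 (0.44) and Nfil3 (0.18) were higher there, as were Npas2 (0.28) and Hlf (0.51), which had few counts. Control tumor 3 also had the most RNA of skeletal muscle genes, with 8 markers such as Acta1 and Ckm summing to 1032 CPM there, to 155 and 257 CPM in control tumors 1 and 2 and to 406, 556 and 175 CPM in the IFN-γ tumors. The part of muscle tissue in the low values of control tumor 3 was not tested.

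Other genes of the clock were taken from lists, written with earlier results of these tumors known, and tested in the same fit of all genes. Of 15 tested kinases, ubiquitin ligases and deubiquitinases that act on PER, CRY or REV-ERB proteins, 0 were past the adjusted threshold in edgeR, 0 had an unadjusted p under 0.05, and 0 were past it with DESeq2 or limma-voom. Their log2 fold changes ran from -0.14 for Huwe1 to 0.29 for Prkaa2, a gene under 1 CPM in the group means, with a median of 0.0063 against 0.0015 over all genes tested. Csnk1d, Csnk1e, Ncor1 and Hdac3 are named for their roles, after their values were seen. Csnk1d and Csnk1e, the casein kinases that phosphorylate PER, had values of -0.072 (SE 0.065) and -0.11 (SE 0.10). Btrc, the ligase subunit for phosphorylated PER, had 0.18 (SE 0.11).

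Among 11 partners of the PER complex and corepressors of REV-ERB, 0 were past the threshold in edgeR, DESeq2 or limma-voom, and 1 had an unadjusted p under 0.05. The median log2 fold change was -0.024. Ncor1 and Hdac3, through which REV-ERB silences its targets, had values of -0.047 (SE 0.094) and -0.021 (SE 0.075). The largest value of this list was 0.20 for Tbl1xr1 (adjusted p = 0.41, edgeR), and Hdac1 had -0.091.

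Of 7 tested genes known to be repressed by REV-ERB, 2 fell, 5 did not pass the test, and the median log2 fold change was -0.54. Arntl fell by 2.12 on the log2 scale (SE 0.095, adjusted p = 7.3e-05, edgeR) and Nfil3 fell by 1.36 (SE 0.11, adjusted p = 0.0043, edgeR). Clock had -0.54 (adjusted p = 0.11, edgeR), and it was past the threshold without IFN-γ tumor 3 (adjusted p = 0.033, edgeR). An unadjusted p under 0.05 was reached by 5 of the 7, and 4 passed in DESeq2. The list shares Arntl and Clock with a list of 7 activators of the clock and Cry1 and Nfil3 with others. Of the activators 5 were tested and 1 fell, Arntl.

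Of 5 E-box output genes, 2 rose, beside 0.0794% of all genes tested that were past the threshold and higher, and 4 had an unadjusted p under 0.05 and 3 passed in DESeq2. The 2 were Dbp (log2 fold change 4.28, adjusted p = 8.7e-06, edgeR) and Tef (2.15, adjusted p = 0.00011, edgeR). Their proteins bind D-box letters in general, and binding to the Per3 window was not measured. Wee1, a cell cycle kinase gene, had 0.50 (adjusted p = 0.096, edgeR), and Nampt 0.35 (adjusted p = 0.35, edgeR). Both were past the threshold without IFN-γ tumor 3 (adjusted p = 0.030 and 0.033, edgeR). Hlf, the remaining PAR bZIP gene, had 1.69 (adjusted p = 0.14, edgeR; 0.046 without IFN-γ tumor 3). Timeless, a partner listed with Cry1, had -0.034.

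**Figure D5:**
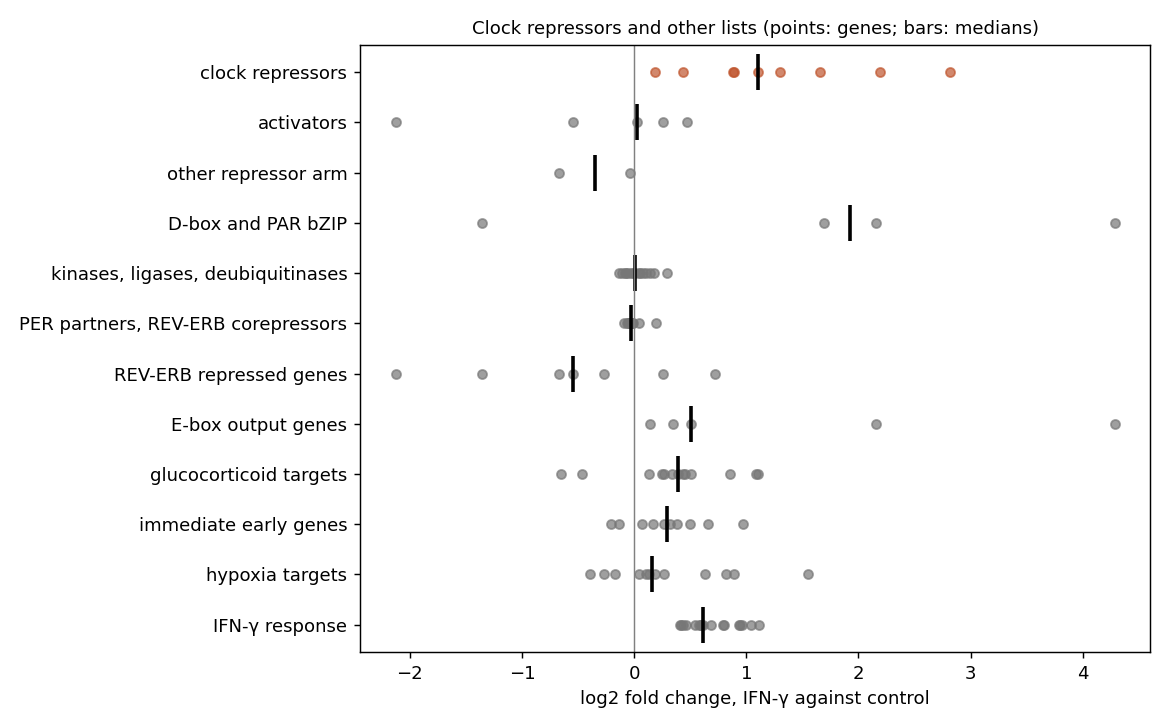
Log2 fold change, IFN-γ against control, of each tested gene (points) of the 9 clock repressors (orange) and of the other gene lists (gray), with the median of each list as a black bar. The enzymes and partners of the PER, CRY and REV-ERB proteins cluster around 0, with medians of 0.0063 and -0.024, and the clock repressors have a median of 1.11.

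Several of the 9 genes answer to signals other than the clock, so lists for those signals were set beside them. Of 13 glucocorticoid target genes without Per1, 1 rose, Tsc22d3, the gene of GILZ (log2 fold change 1.104, adjusted p = 0.023, edgeR), and the median was 0.39. An unadjusted p under 0.05 was reached by 9 of the 13, 4 passed in DESeq2, 1 in limma-voom and 6 in edgeR without IFN-γ tumor 3. The call on Tsc22d3 was lost without control tumor 2 or 3 or IFN-γ tumor 1 or 2 (adjusted p = 0.12, 0.091, 0.057 and 0.11, edgeR). Cebpd had 0.85 (adjusted p = 0.074, edgeR; 0.019 without IFN-γ tumor 3) and Dusp1 1.08 (adjusted p = 0.35, edgeR).

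Of 10 immediate early genes, 0 were past the threshold in edgeR, DESeq2 or limma-voom and 2 had an unadjusted p under 0.05. Fos had 765 to 3099 counts in the control tumors and 1297 to 3759 in the IFN-γ tumors, so its groups overlapped, and Atf3 had 0.97 on the log2 scale (adjusted p = 0.44, edgeR; 0.040 without IFN-γ tumor 3). Of 12 hypoxia targets without the DEC genes, 0 were past the threshold in edgeR and 0 in limma-voom, 3 in DESeq2, and 4 had an unadjusted p under 0.05. Their median was 0.16, with Car9 at 1.55 (adjusted p = 0.36, edgeR) and Ankrd37 at 0.89 (adjusted p = 0.35, edgeR). In IFN-γ tumor 3, where both DEC genes were highest, the median log2 ratio of the 12 targets to the controls was 0.48. It was 0.14 and 0.016 in IFN-γ tumors 1 and 2. Car9 was instead highest in IFN-γ tumor 1, at 21.6 CPM, against 8.78 CPM in IFN-γ tumor 3. Of the 12, 4 were higher in each IFN-γ tumor than in each control tumor (7.62% of all genes tested), and 2, Egln3 and Adm, were lower.

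Of 17 genes of the IFN-γ response, 0 were past the threshold in edgeR and 0 in limma-voom, 1 in DESeq2 and 13 in edgeR without IFN-γ tumor 3, and 10 had an unadjusted p under 0.05. Their median was 0.62 with all 6 tumors, with Ciita at 1.12 (adjusted p = 0.42, edgeR; 0.025 without IFN-γ tumor 3) and Gbp2 at 1.04 (adjusted p = 0.30, edgeR; 0.016 without IFN-γ tumor 3). The part of any of these signals in the levels of the 9 genes was not tested.

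Markers of adipocytes, among them the adiponectin gene Adipoq and the lipid droplet gene Plin1, moved with the groups as well. All 8 were above 0 on the log2 fold change scale, 7 of the 8 were higher in each IFN-γ tumor than in each control tumor (7.62% of all genes tested), and their median was 2.17. In edgeR 0 of the 8 were past the adjusted threshold, 7 had an unadjusted p under 0.05 (10.2% of all genes tested), and 5 were past the threshold in DESeq2. The summed level of the 8 genes was 119 to 162 CPM in the control tumors and 173 to 227 CPM in the IFN-γ tumors, and no marker was at 0 in all tumors. Most of that sum was Fabp4, whose groups overlapped, and the other 7 genes summed to 27.8, 22.3 and 27.5 CPM in the control tumors and to 54.9, 85.9 and 64.4 CPM in those given IFN-γ. Summed levels of T cell markers were 56.6 to 80.6 CPM in the control tumors and 42.5 to 125 CPM in the IFN-γ tumors. The part of these cells in the levels of the clock repressors was not tested.

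The genes whose 6 log2 ratios to the control mean came nearest to the median of the 9 clock repressors were Kif9, Tsc22d3, Itgb8, C1s1, Ces1d, H2-Oa, Smad6 and Cebpd. Likeness was the root mean square difference over the 6 tumors, which ran from 0.12 for Kif9 to 0.24 for Cebpd among 14059 genes at a mean of at least 1 CPM. The median of that difference over all of these genes was 0.78. Of the clock repressors themselves, only Per2 (0.17), Per3 (0.19) and Bhlhe41 (0.20) lay as near to their own median as these 8 genes. Ciart (0.26), Per1 (0.42), Bhlhe40 (0.48), Cry2 (0.63), Nr1d2 (0.83) and Nr1d1 (1.29) lay farther from it than all 8. That median was taken over genes chosen by their group difference. Tsc22d3 and Cebpd are also in the glucocorticoid list. By the largest difference in any tumor instead, 5 of the 8 genes remained.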

How the data were processed

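For each of the 6 tumors the authors deposited raw gene counts, which are whole numbers. The submitters' processing notes name HISAT2 and mm10. Versions, the counting program, its annotation and its strand setting are not given in the sources used here. Of the identifiers, 99.4% are in GENCODE M21 (GRCm38), which gave coordinates and exon lengths. Counting precision is limited by depth, and 3 counts in the shallowest library equal 0.190 CPM.

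All genes were fitted with edgeR 4.0.16 (R 4.3.3), with filterByExpr, TMM factors, the quasi-likelihood test, Benjamini-Hochberg adjustment and a threshold of 0.05. The SE is the log2 fold change divided by the square root of F. An offset of 0.5 CPM was added before log2 ratios were taken. DESeq2 1.42.0, limma 3.58.1 (voom), 3 other scalings, 2 other filters, a replicate block and leaving out each tumor were the alternatives. Methods were tested on simulated data.

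The 9 genes, the lists and the tests were chosen with earlier results of these data known. Genes were named if they were clock repressors, shared exon bases with one, passed the threshold or had the 2 largest differences in a list, or were among the 8 nearest profiles. Some genes that this rule named are not reported here. Marker lists for skin, muscle, macrophages, neutrophils, endothelium and fibroblasts had 0 genes past the threshold in edgeR or limma-voom. Only 2 of the 8 skin markers had enough counts to be tested. The lists had 0, 0, 5, 1, 2 and 0 genes with an unadjusted p under 0.05 in either direction (10.2% of all genes tested). In DESeq2, 2 macrophage genes passed (1.47% of all genes). The median log2 fold changes of the lists were 0.47, -0.36, 0.36, 0.36, -0.22 and 0.12. Of the macrophage genes, 6 were above 0 and Mrc1 (-0.22, SE 0.085) was below it. Of the endothelial genes, 2 were above 0 and 4 below it, among them Kdr (-0.58) and Cdh5 (-0.39). T cell and colon epithelium markers had 0 genes past the threshold in edgeR, DESeq2 or limma-voom and 0 with an unadjusted p under 0.05, with medians of 0.45 and -0.49. D930015M05Rik, 0610040F04Rik and Gm43909, which share exon bases with Cry2, Bhlhe40 and Bhlhe41, had at most 10 counts in any tumor. No pair of libraries was a duplicate, with at least 5.59 chi-square units per gene between any pair.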

Additional observations from a re-analysis of the deposited data

How the results depend on the processing

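With all tumors, 5 clock repressors were past the threshold, beside 0.0794% of all genes tested that were past it and higher. The number was 8 with no filter on low counts (0.558% of all genes). It was from 2 to 7 when single tumors were left out (0.0259% to 2.46%). The edgeR fit of all genes gave 12 higher and 5 lower. DESeq2 gave 125 and 71, no filter on low counts 150 and 70, library size only 7 higher, limma-voom 3 lower, and leaving out single tumors from 4 to 381 higher and from 2 to 112 lower, the most without IFN-γ tumor 3. The cause was not tested. Both groups carry replicate numbers 1 to 3, but same-numbered tumors did not deviate together (correlations of -0.241, -0.00473 and -0.221), and none correlated best with its own number. A replicate block gave 5 higher genes (0.0331% of all genes), 3 of them clock repressors, and 2 lower genes, and did not call Tsc22d3. Timeless ran from a log2 fold change of -0.13 to 0.023 and Prkaa2 from -0.18 to 0.92 when single tumors were left out, and Prkaa2 was at -0.0045 with limma-voom. With the longest transcript as the length, 2 of the 9 genes kept their place in the control order, and by the largest difference 5 of the 8 nearest genes remained. Depth was lowest for Ciart (88 to 290 counts).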
